A study of Mus musculus with 8 samples.

Results

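The Hdac7 locus was described here from 83 cytosine positions (sites) of a DNA methylation table that held 136069 in all. The members were all sites in a window of 57000 bases of chromosome 15 that holds Hdac7 in mm9, an older mouse genome build, with positions taken as deposited. The window was chosen by the methylation of chr15:97645518-97646332, already known to be lower in lung metastases than in primary tumors. Values that set metastases against tumors are therefore given as a description. Counts of called sites or regions that include that stretch describe the choice and support nothing. Methylation was measured by bisulfite sequencing, in which unmethylated cytosines are converted and methylated ones are not. All 8 samples came from the 4T1 model, a mammary carcinoma cell line grown in BALB/c mice. They were 2 primary mammary tumors labelled MFP, 3 lung metastases labelled MFP and 3 lung metastases labelled TVI, with the abbreviations kept as given. No primary tumor was labelled TVI, so lung and label cannot be told apart where TVI metastases are set against tumors. The labels name no age, no animal and no purification of tumor cells, so it is not known whether the samples stand for separate mice. A p-value here sets a group difference only against the variation among these samples, and that variation may be technical. The ZR-Duet miniprep gave the DNA, and bisulfite conversion used the EZ-DNA Methylation Gold kit.

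Hdac7 encodes histone deacetylase 7, a class IIa enzyme. Proteins of this class bind MEF2 transcription factors and hold their target genes silent by recruiting corepressor complexes that contain NCoR or SMRT. Phosphorylation by kinases such as protein kinase D creates binding sites for 14-3-3 proteins, which keep the enzyme in the cytoplasm and release MEF2. Hdac7 is known for roles in endothelial cells, in developing T cells and in B cell precursors. Methylation of CpG dinucleotides near a transcription start is commonly low where the start is in use and can be high within the body of a transcribed gene. The table holds no RNA, so nothing was measured about the amount of Hdac7 transcript or protein.

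The sites lay inside the Hdac7 gene, around a transcription start that RefSeq lists within it. The placement came from sequence. Promoters farther from the centromere, such as A330009N23Rik (12 of 12 sites) and Igfbp6 (8 of 8 sites), fitted an offset of 169568 bases. Promoters nearer the centromere, such as Tubgcp6 (23 of 23 sites), fitted an offset of 169569 bases. Only these offsets were tried at Hdac7. The first put the 3 sites nearest to that internal start on 3 CpGs of its promoter window (GRCm38.p6), and the second put them on 0 CpGs. The internal start lies 29639 bases inside the 5′ end of the gene, which spans 51842 bases and runs on the minus strand. The 250 bases before it are shown because the choice between the offsets rests on their CpGs. They lie at chr15:97814864-97815113 on the minus strand of GRCm38.p6 and are taken from RefSeq, with each CpG in capitals.
Hdac7 internal promoter: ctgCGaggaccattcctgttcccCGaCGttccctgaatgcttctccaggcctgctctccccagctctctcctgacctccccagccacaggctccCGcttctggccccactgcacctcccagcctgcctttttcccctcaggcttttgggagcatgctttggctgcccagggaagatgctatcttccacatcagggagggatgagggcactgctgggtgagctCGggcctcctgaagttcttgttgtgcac

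The window of 300 bases, from 250 before the start to 50 after it, held 5 CpGs, against a median of 7.0 in all 32851 promoter windows of the RefSeq table. The first 3 CpGs of the printed sequence are the ones with methylation values. The other 3 RefSeq windows of Hdac7 held 31, 35 and 6 CpGs, and no site of the table lay in them, so the CpG-rich starts of the gene were not measured. Of the motifs searched on both strands, AP-1 (TGANTCA) matched once, 22 bases past the start, a match present in 7.81% of all windows. The E-box (CANNTG), found in 72.3% of windows, matched at 10 and 18 bases past the start, and the second match overlaps the AP-1 letters. The letters GGGCGG (35.7% of windows), CCAAT (37.4%) and a MEF2 core motif (3.69%) were not in this window.

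The 83 sites formed 2 stretches when sites up to 500 bases apart were joined. An upstream stretch of 16 sites (chr15:97645518-97646332) ran from 223 to 1037 bases before the internal start. A downstream stretch of 67 sites (chr15:97640652-97644919) ran from 376 to 4643 bases past it, within the gene. Exon positions were not used here, so exonic and intronic sites are not separated. The upstream stretch is the one that chose the locus, and the downstream stretch was not used in that choice.

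In the upstream stretch, mean methylation was 50.7% and 47.4% in the primary tumors, 43.1%, 45.4% and 44.1% in the MFP metastases and 30.3%, 24.5% and 25.4% in the TVI metastases. The 3 groups did not overlap, with tumors highest and TVI metastases lowest. Among all regions of the table, 4.87% had every MFP metastasis below both tumors, 13.4% every TVI metastasis below both tumors and 16.9% every TVI below every MFP metastasis. Group means were 49.0% ± 2.28 (SD, n = 2), 44.2% ± 1.16 (SD, n = 3) and 26.7% ± 3.12 (SD, n = 3). TVI minus MFP metastases was -17.5 points, and MFP metastases minus tumors was -4.81 points. Here and below, a point is a percentage point of methylation.

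In the downstream stretch, methylation was 87.2% and 86.6% in the tumors, 89.2%, 89.3% and 88.9% in the MFP metastases, and 79.1%, 75.8% and 77.0% in the TVI metastases. Again no groups overlapped, but here the MFP metastases were the highest and not the middle group. MFP metastases lay above both tumors in 36.8% of all regions. Means were 86.9% ± 0.445 (SD, n = 2), 89.1% ± 0.216 (SD, n = 3) and 77.3% ± 1.65 (SD, n = 3). TVI minus MFP metastases was -11.8 points (SE 0.766, limma adjusted p = 1.14e-05 over 3083 regions of the table). The share of all regions that passed was 13.8% for lower and 42.0% for higher, and the median region was 0.837 points higher in TVI metastases. The downstream stretch lies beside the one that chose the locus and uses the same metastases, so its test is not independent of that choice.

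**Figure D1:**
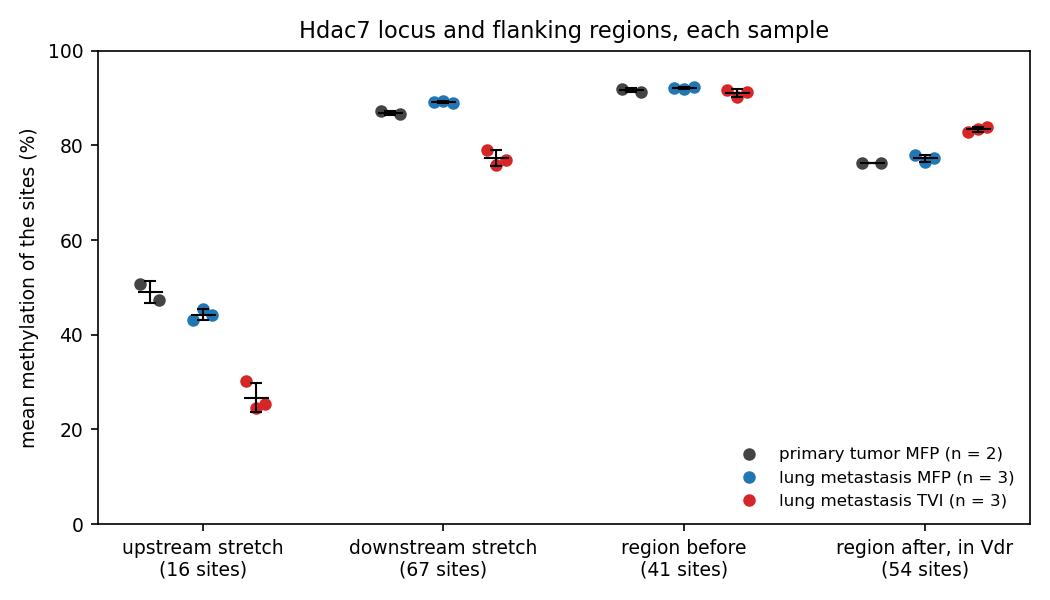
Mean methylation (%, vertical axis) of the sites in the 2 Hdac7 stretches and in the regions before and after them on chromosome 15, with 1 point per sample and bars for the group mean ± SD. TVI metastases are lowest in both Hdac7 stretches, near the other groups in the region before, and highest in the region after.

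The nearest measured regions on either side differed from the Hdac7 stretches in the size or the direction of the TVI minus MFP difference. The region before, of 41 sites at chr15:97588797-97591487, had 91.7% ± 0.437 (SD, n = 2) in the tumors, 92.1% ± 0.230 (SD, n = 3) in the MFP group and 91.1% ± 0.803 (SD, n = 3) in the TVI group of metastases. TVI and MFP metastases differed there by -1.05 points (SE 0.445, limma adjusted p = 0.0810). The order of the group means was that of the downstream stretch, with a far smaller distance. Every TVI metastasis (90.2% to 91.7%) lay below every MFP metastasis (91.9% to 92.3%), as in 16.9% of all regions. The region after, of 54 sites at chr15:97724620-97727957, falls within Vdr, the vitamin D receptor gene, by the same offset. It had 76.2% ± 0.00879 in the tumors, 77.3% ± 0.700 in the MFP group and 83.4% ± 0.513 in the TVI group, so TVI metastases were 6.08 points higher than MFP metastases (SE 0.470, limma adjusted p = 2.28e-05). That rise was uneven, with a median site difference of 0.492 points and single sites from -16.0 to 40.3 points. At 7 of its 54 sites every TVI metastasis lay below every MFP metastasis, beside 10.9% of all sites, and nothing is read from that count.

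The difference between the downstream stretch and the Vdr region was then taken within each sample. It was 11.8 points ± 0.808 (SD, n = 3) in the MFP group and -6.09 points ± 2.03 (SD, n = 3) in the TVI group, a description added after both regions' values were seen. Of the sites at the edges of the window, position 97640652, the farthest inside, had means of 48.0% in the tumors, 42.7% in the MFP group and 39.4% in the TVI group, and position 97646332 at the other end had 59.5%, 37.3% and 19.2%. Just outside, position 97591487 had 34.8%, 44.0% and 16.3%, so the TVI mean was also the lowest at that single site, and position 97724620 had 90.1%, 94.6% and 90.1%.

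Sites of the upstream stretch differed widely in level, and those nearer the start were lower on average. The 6 sites from 223 to 453 bases before the start averaged 27.7% ± 0.639 (SD, n = 2) in the tumors, 28.5% ± 0.761 (SD, n = 3) in the MFP group and 10.4% ± 4.32 (SD, n = 3) in the TVI group. The tumor and MFP metastasis samples overlapped in these sites, from 27.2% to 29.1%, and every TVI metastasis was lower, at 15.4%, 7.89% and 7.96%. The 10 sites from 728 to 1037 bases before the start averaged 61.9% ± 4.04, 53.7% ± 2.31 and 36.5% ± 2.46. There the MFP metastases, at 51.5%, 56.1% and 53.3%, all lay below the tumors, at 64.7% and 59.0%. The distance of MFP metastases from tumors was thus -8.19 points in the far sites and 0.833 points in the near ones.

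The 3 CpGs of the printed promoter ran from unmethylated to partly methylated. Position 97645518, the last of these CpGs in the printed sequence, was listed at 0 in 7 samples and at 8.70% in TVI metastasis 1. Position 97645521, the second CpG, was at 6.25% and 8.57% in the tumors, 12.1%, 11.8% and 18.2% in the MFP metastases and 8.89%, 2.86% and 0% in the TVI metastases. Position 97645541, the first CpG, was at 27.7% and 34.7% in the tumors, 35.9%, 30.6% and 31.3% in the MFP metastases and 19.1%, 7.84% and 2.0% in the TVI metastases. At position 97645541 the TVI metastases lay below all other samples. At position 97645521 they lay below every MFP metastasis but overlapped the tumors.

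The far end of the upstream stretch held the largest falls from the tumors to all metastases together. Position 97646332, 1037 bases before the start, was at 60.7% and 58.4% in the tumors, 35.9%, 37.1% and 38.7% in the MFP metastases and 24.3%, 15.8% and 17.4% in the TVI metastases. Position 97646295 was at 80.8% and 73.1%, then 65.4%, 65.9% and 65.0%, then 38.2%, 27.4% and 32.4% in the same order of groups. Both positions descended in separate steps from tumors through MFP to TVI metastases. The same order without overlap held at 6 of the 16 upstream sites, all from 802 to 1037 bases before the start, and at 2 of the 67 downstream sites, against 0.551% of all sites. Since tumors chose the locus, nothing is read from that share.

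The downstream loss in TVI metastases was uneven from site to site. Of 67 sites, 39 were at 80% or more in all 8 samples, and 17 were at least 20 points lower in TVI than in MFP metastases. Of all sites, 2.69% were that much lower. The SD between the 67 sites was 11.7 points in tumors, 11.2 points in MFP metastases and 21.8 points in TVI metastases. The median site difference of TVI minus MFP metastases was -3.42 points, against 0.377 points over all sites tested and -11.8 points for the mean of the stretch.

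**Figure D2:**
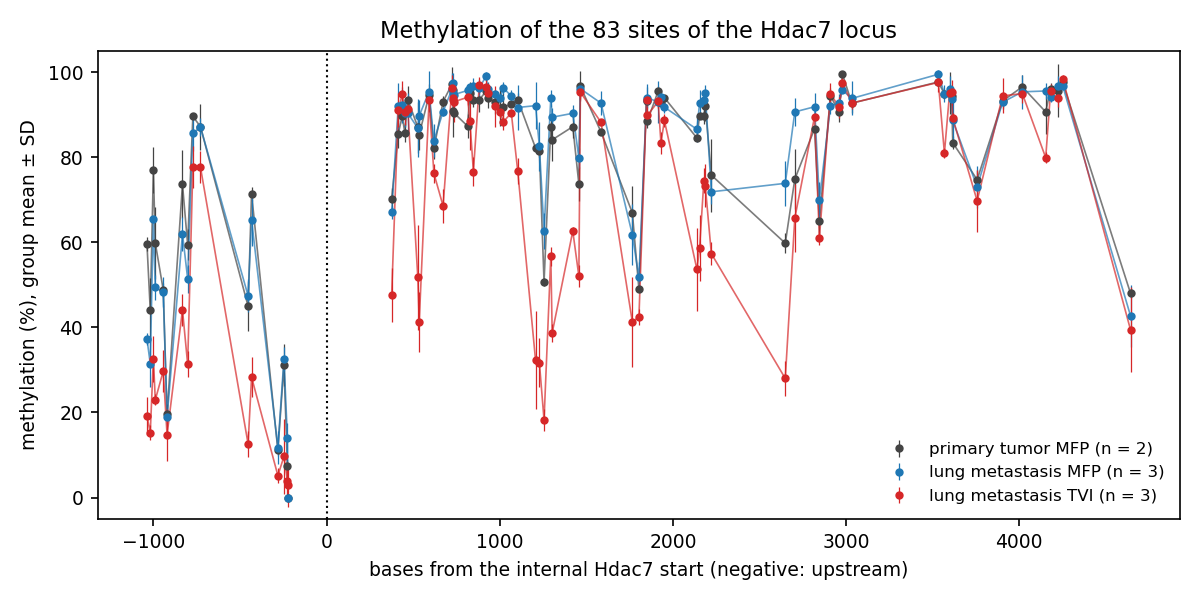
Methylation (%, group mean ± SD, vertical axis) of each of the 83 sites by distance in bases from the internal Hdac7 start (horizontal axis, dotted line at the start), with lines joining sites within a stretch. TVI metastases dip sharply at separate places past the start, such as 18.2% at 1256 bases, while sites between the dips stay near the other groups.

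The deepest downstream loss lay between 1207 and 1303 bases past the start, a span drawn around the largest falls after the values were seen. All 5 sites of that span passed the test as lower in TVI metastases, beside 6.53% of all sites tested. That count follows from how the span was drawn, and nothing is read from it. Position 97644088 was at 81.7% and 82.6% in the tumors, 98.3%, 87.9% and 90.1% in the MFP metastases and 45.5%, 24.4% and 26.8% in the TVI metastases. From MFP to TVI metastases it fell by 59.9 points (SE 5.62, limma adjusted p = 2.10e-05 over all 135914 sites tested). TVI metastasis 1 kept more methylation at this site than the other two, and all 3 were below every other sample.

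Position 97643992, in the same group of sites, was at 87.7% and 80.5% in the tumors, 89.0%, 87.4% and 91.8% in the MFP metastases and 38.5%, 40.9% and 36.7% in the TVI metastases. From MFP to TVI metastases it fell by 50.7 points (SE 3.80, limma adjusted p = 5.35e-06). The TVI values at this site lay within a few points of each other. Between these, position 97644066 fell by 50.9 points (adjusted p = 1.66e-05), position 97644039 fell by 44.5 points (adjusted p = 8.12e-06) and position 97644000 fell by 37.1 points (adjusted p = 1.02e-05) by the same limma test, each with all 3 TVI metastases below all 3 MFP metastases. Positions 97644039 and 97644000 were added after their values were seen.

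A pair of large falls lay outside that group. Position 97644760, 535 bases past the start, was at 82.8% and 87.8% in the tumors, 93.2%, 90.2% and 85.7% in the MFP metastases and 49.2%, 35.7% and 38.8% in the TVI metastases (TVI minus MFP metastases -48.5 points, SE 4.43, limma adjusted p = 1.79e-05). Position 97642646, 2649 bases past the start, was at 61.4% and 58.1%, then 69.1%, 72.9% and 79.5%, then 32.0%, 28.4% and 23.6% (-45.9 points, SE 4.31, limma adjusted p = 2.12e-05). In both, no TVI metastasis reached the level of any other sample. At position 97642646 the MFP metastases also lay above both tumors.

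Other sites a short distance away held their methylation. Position 97644413, which lies between the deep group and position 97644760, was at 91.5% and 95.5% in the tumors, 94.4% to 98.3% in the MFP metastases and 95.5% to 99.0% in the TVI metastases, a site chosen after its values were seen. With sites joined only up to 250 bases, the 46 sites from 376 to 2222 bases past the start averaged 87.0%, 89.4% and 74.6% in the tumors, the MFP group and the TVI group. The next 8 sites, to 3033 bases, averaged 82.9%, 87.6% and 77.6%, and 12 sites from 3533 to 4251 bases averaged 92.5%, 93.1% and 90.4%. TVI minus MFP metastases was thus -14.7, -9.96 and -2.70 points in these groups of sites, in order of distance past the start. The median site differences were smaller, at -7.86, -1.72 and -0.639 points. In the group of 8 sites only 2 passed as lower, so its mean rests on few sites.

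Counted over sites, 25 of the 67 downstream sites were lower in TVI than in MFP metastases by limma's test adjusted over all sites, and none of the 67 passed as higher. Of all sites tested, 6.53% passed as lower and 10.4% as higher. In the downstream stretch the TVI metastases lay below every MFP metastasis at 34 sites and in the upstream stretch at 13 sites, against 10.9% of all sites. Of the 25 downstream sites that passed, 18 were among the 56 at 80% or more in the tumors, and 7 were among the 11 between 20% and 80%.

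**Figure D3:**
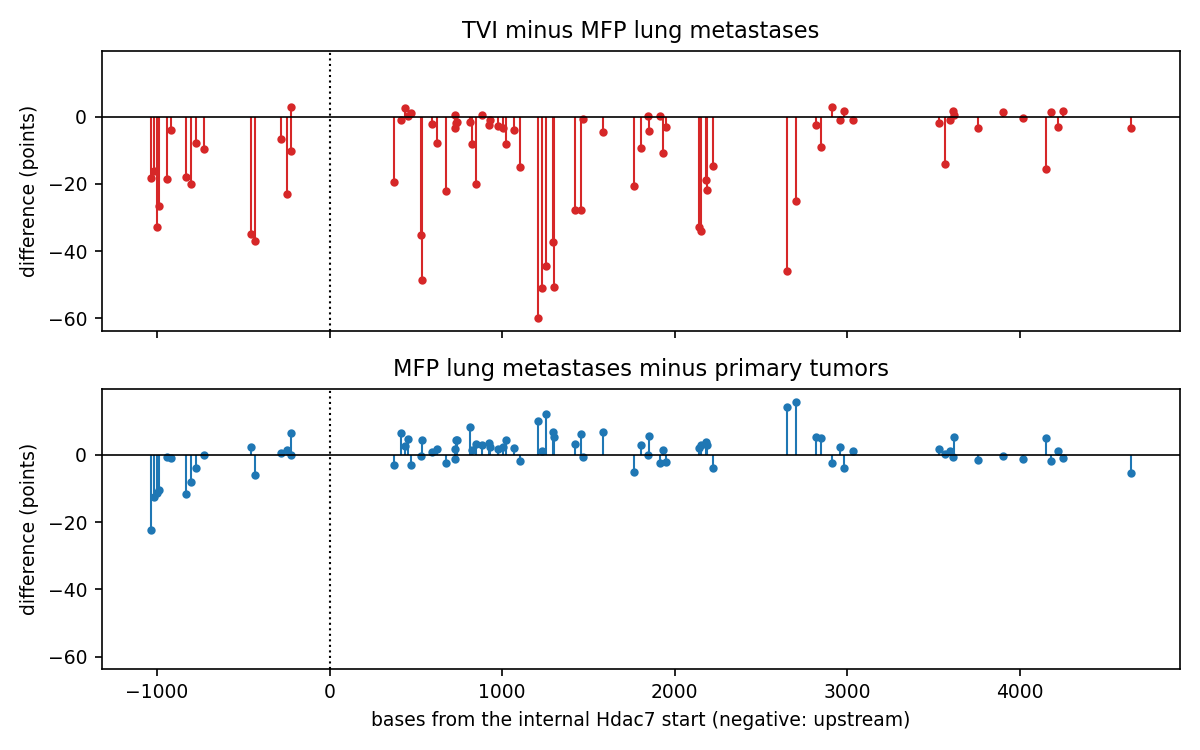
Difference in methylation (points, vertical axes) at each of the 83 sites by distance in bases from the internal start, for TVI minus MFP metastases (upper panel) and MFP metastases minus primary tumors (lower panel). Falls in the upper panel occur on both sides of the start, with the lowest at -59.9 points, and those in the lower panel gather at the far upstream end.

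MFP metastases and primary tumors were set side by side as the pair that shares a label. MFP metastases minus tumors was 2.22 points in the downstream stretch and -4.81 points in the upstream stretch. The upstream value was -3.19 points without primary tumor replicate 1 and -6.42 points without primary tumor replicate 2. By site, the MFP metastasis mean was above the tumor mean at 47 of 67 downstream sites and at 4 of 16 upstream sites. The median over all sites tested was also higher in MFP metastases, by 0.392 points. Most sites of the table thus went the way of the downstream count, and nothing particular to the stretch is read from it. At 9 downstream sites every MFP metastasis was above, and every TVI metastasis below, both tumors, a pattern found at 1.33% of all sites. Position 97644039 was one of them, with a tumor mean of 50.7% ± 0.930 (SD, n = 2), 58.9% to 67.2% in the MFP group and 15.3% to 20.3% in the TVI group. No member site passed limma's adjusted test in this comparison (0 of 83, with 15 at an unadjusted p under 0.05), beside 0.0464% of all sites that passed and 11766 sites at an unadjusted p under 0.05. No second tool was run.

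Against the primary tumors, the contrast that chose the locus, limma called 13 of 83 sites lower and 1 higher for all metastases, beside 1.62% and 5.12% of all sites. The count of 14 (6.74% of all sites in either direction) fell to 1 without primary tumor replicate 1 and to 5 without primary tumor replicate 2. For TVI metastases alone 34 sites were lower and 1 higher, beside 5.24% and 11.4%. The single site that rose, position 97644481 at 814 bases past the start, was at 89.2% and 85.4% in tumors and between 91.9% and 96.3% in the 6 metastases. These counts describe the choice and nothing is read from them.

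**Figure D4:**
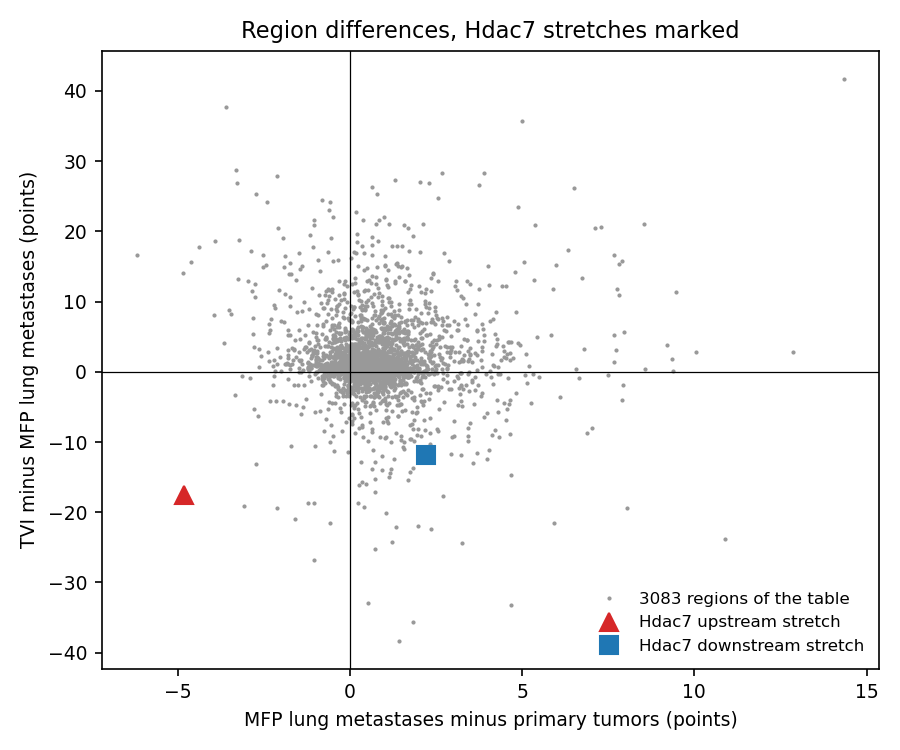
Difference in mean methylation (points) of 3083 regions for MFP metastases minus primary tumors (horizontal axis) and TVI minus MFP metastases (vertical axis), with the 2 Hdac7 stretches marked. The upstream stretch lies low on both axes, at -4.81 and -17.5 points, and the downstream stretch is right of 0 on the first axis and below 0 on the second, at 2.22 and -11.8 points. MFP metastases enter both axes with opposite sign.

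Among all 3083 regions ordered from the lowest difference, the upstream stretch stood at place 3 for MFP metastases minus tumors and at place 25 for TVI minus MFP metastases. That stretch chose the locus by its fall from tumors to metastases, so its places describe the choice and nothing is read from them. The downstream stretch stood at place 2768 and at place 47. The 5 regions elsewhere whose levels over the 8 samples, each centred on its own mean, were closest to the upstream stretch were found by the mean absolute difference between the centred levels. The closest, chr16:10784921-10785124 (7 sites), differed by 0.947 points and had 32.2% ± 2.17 in the tumors, 29.1% ± 1.88 in the MFP group and 10.1% ± 4.35 in the TVI group. The other 4 were chr12:113146598-113147244, chr8:97876962-97878353, chr6:86348123-86348660 and chr6:42300697-42303786, which differed by 1.24 to 1.66 points. In chr6:42300697-42303786 the MFP group, at 63.3%, was slightly above the tumors, at 62.9%, unlike in the upstream stretch. In the other regions the group means fell from tumors through MFP to TVI metastases. All were picked for their likeness, so their levels are no separate result.

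Of the genes listed for the deacetylase pathway, almost none had a promoter that could be placed. Of 18 lysine deacetylase genes only Hdac7 had a promoter window with at least 3 placed sites. Of 31 genes for partners of class IIa enzymes only Mef2d did, which encodes a MEF2 transcription factor of the kind that Hdac7 represses. Its 3 sites (chr3:87946078-87946096) averaged 0.805% ± 0.136 (SD, n = 2) in the tumors, 0.831% ± 0.820 (SD, n = 3) in the MFP group and 0.593% ± 0.650 (SD, n = 3) in the TVI group, so the groups overlapped near 0. None of the 22 markers listed for leukocytes, endothelium, lung epithelium, carcinoma epithelium and fibroblasts was placed, so the labelled cell type was not checked, and the part of other cells in the differences was not tested. A bulk methylation level is a share over all cells and alleles of a sample, so loss in some cells and a changed mix of cells cannot be told apart.

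Over the whole table, mean methylation per sample was 66.6% to 66.9% in the tumors, 67.4% to 67.5% in the MFP metastases and 68.5% to 68.7% in the TVI metastases. TVI metastases thus had the highest mean over the table and the lowest in both Hdac7 stretches. Read counts are not part of the table, which leaves the depth of each site unknown, so single sites carry no counting interval.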

How the data were processed

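The authors deposited 1 table of methylated fractions (beta values, 0 to 1), per the file headers, which are printed here as percentages. Trimmomatic, Bismark and mm10 are listed, per the submitters' processing notes, and any coverage filter is not stated there. The coordinates were not those of mm10 (GRCm38): 557 of 3166 chromosome 7 sites lay beyond its last gene. Taken as deposited, 4.06% of sites in RefSeq promoter windows fell on the C of a CpG. That share cannot tell the build, since 25 windows on 3 chromosomes matched at an offset of -1 base. Because the build differed, windows were placed by CpG spacing. This required at least 8 sites all on CpGs and an offset shared by at least 2 windows (206 windows on 15 chromosomes). Listed genes needed at least 3 sites at the offset of a neighboring placed window.

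Sites with any variation (135914), and the means of 3083 regions of at least 3 sites, entered limma 3.58.1 (R 4.3.3), which fitted all 8 samples with a mean for each group and a variance trend. Tests were two-sided with Benjamini-Hochberg adjustment over the whole table and a threshold of 0.05. The test of single sites for TVI against MFP metastases was tried on simulated data with independent normal noise. The test of regions and the comparisons with tumors were not simulated. Named sites were the 5 largest rises and falls per comparison that passed with no overlap of groups. The members and lists were chosen with earlier results of these data known. Promoter placement replaced a planned placement by annotation and was chosen after seeing the data. Alternatives covered the variance trend, the scale, quantile normalization, the groups fitted, a replicate block, each sample left out, a filter on levels and the joining distance.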

Additional observations from a re-analysis of the deposited data

Results flagged for a closer look

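Both results given here are differences of TVI minus MFP metastases, tested with limma. The tumor mean does not enter this difference, so no change from the tumors was tested by it. In the downstream stretch of Hdac7 (67 sites) this difference was -11.8 points, with MFP metastases above and TVI metastases below both tumors. The stretch was not called for MFP metastases against tumors, and MFP metastases lay above both tumors in 36.8% of all regions. Within that stretch, 25 of 67 sites passed as lower in TVI than in MFP metastases and none as higher, beside 6.53% and 10.4% of all sites tested. The stretch lies beside the one that chose the locus and uses the same metastases, so neither result is independent of that choice. Groups of 2 and 3 samples were too small to look for single samples far from their group.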

How the results depend on the processing

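For TVI against MFP metastases, the downstream stretch kept its direction and its call in all 13 alternatives, from -13.8 to -11.1 points (limma adjusted p 3.63e-06 to 0.000130). Quantile normalization, which removes the higher overall level of TVI metastases, moved the upstream stretch to -20.7 points in that comparison. Against the tumors it gave -16.7 (upstream) and -5.71 points (downstream) for all metastases, -27.1 and -12.6 points for TVI metastases, and 1.17 points downstream for MFP metastases. For all metastases against tumors, 22 of 69 member sites were called when only sites with means of 5% to 95% were tested. The count was 9 of 83 with a replicate block, and 1 to 18 when samples were left out one at a time. The shares of all sites called under these alternatives are not given, and nothing is read from the counts. Same-numbered samples did not deviate together (correlations -0.00370 to 0.0172), so the numbers were not treated as pairs, and the block moved no other count by over 1.5 times. For MFP metastases against tumors, 1 site was called with no variance trend and 1 with the filter on levels, and leaving out samples called 0 to 1 of the 2 stretches, with the 1 called, as higher in MFP metastases, without TVI metastasis replicate 1. The regions formed at other joining distances include the stretch that chose the locus, so their calls are a description and support nothing. Sites joined up to 1000 bases form 1 region, and 1 was then called in each of the comparisons of all or TVI metastases with tumors and of TVI with MFP metastases. Joined up to 250 bases, they form 5 regions, 2 of them in that stretch, of which 4 were called for TVI metastases against tumors and 5 for TVI against MFP metastases. The other results moved by less than the spread between replicates or, for counts, by at most 1.5 times. Depth is unknown, which limits statements about single sites.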

Other observations

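On 3 chromosomes, 25 promoter windows matched the deposited positions at an offset of exactly -1 base, and elsewhere offsets reached 7255371 bases. Distances from the internal Hdac7 start were measured to the C that the offset of this locus gives.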
